A study of Homo sapiens with 10 samples.

Results

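Small nucleolar RNAs (snoRNAs) and small Cajal body RNAs (scaRNAs) were followed in a human colon cancer cell line and in cells recovered from its metastases. The set holds every gene whose single listed symbol starts with SNORA, SNORD or SCARNA, taken as 1 mean per gene. It comprises 44 genes, of which 16 are SNORA, 22 are SNORD and 6 are SCARNA, among 4727 genes with a single listed symbol. Of the 44 genes, 42 rest on 1 row of the table and 2, SCARNA9 and SNORD103A, on 2 rows each. The 2 rows of SNORD103A hold identical values and are 1 measurement. Another 19 rows list a small RNA among several symbols, so they belong to no member and are described separately.

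The cells are SW620, an established colon cancer line, and no genetic change or drug treatment is recorded for any group. The parental group has 4 arrays, the liver metastasis derivatives 3 and the lung metastasis derivatives 3. The derivatives were selected in balb/c nude mice, which lack most T cells, then taken out of the animal and grown in culture before RNA extraction, so all arrays hold RNA of cultured cells. The labels call the arrays biological replicates, without saying if the 3 arrays of a derivative come from different metastases or from 1 derivative grown several times. The p-values therefore measure the spread between these samples, which may be technical. Keratins of simple epithelia were bright on every array, KRT8 at 12.71 to 12.91 log2 units and KRT18 at 11.50 to 11.78, and the leukocyte gene PTPRC lay at 4.96 to 5.26. Over a fixed list of 8 colon epithelial genes the mean level lay at 9.12 to 9.16 in parental, 8.73 to 8.79 in liver and 8.70 to 8.77 in lung arrays, and over 6 leukocyte genes at 6.27 to 6.37, 6.50 to 6.60 and 6.76 to 6.79. Among the epithelial genes LGR5 fell by 0.81 in liver and 1.27 in lung, and CD44 by 0.67 and 1.17. TSPAN8 fell by 1.12 and 0.43 and ELF3 by 0.51 and 0.25. The other 4, with KRT8 and KRT18 among them, differed by -0.13 to 0.11. The leukocyte shift was mainly that of LYZ, lysozyme, which rose by 0.97 in liver and 1.64 in lung. Over 3 stromal genes the mean lay at 6.60 to 6.96, 6.12 to 6.13 and 6.48 to 6.92, mainly through LUM, the matrix proteoglycan lumican, which fell by 1.97 in liver. Endothelial, hepatocyte and lung epithelial lists overlapped between parental arrays and each derivative. The part of these shifts in the small RNA values was not tested.

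SNORD genes encode box C/D snoRNAs, which guide 2′-O-methylation of ribosomal RNA by base pairing and carry the methyltransferase fibrillarin. SNORA genes encode box H/ACA snoRNAs, which guide conversion of uridine to pseudouridine by dyskerin. SCARNA genes encode related RNAs that gather in Cajal bodies and guide the same modifications on spliceosomal small nuclear RNAs. In human cells most of them are cut out of introns of host genes, many of which encode ribosomal proteins or translation factors, so each is made together with its host transcript and then has its own lifetime. In the RefSeq gene table (GRCh38.p14) the SNORA genes here are 123 to 189 nucleotides long (median 134), the SNORD genes 60 to 148 (median 75) and the SCARNA genes 129 to 353 (median 218). All 44 lie inside at least 1 other gene. RNA was isolated with a column kit of a type that recovers long RNA better than short RNA, and a probe inside an intron can also bind unspliced host RNA. A value below is thus the signal at the small RNA gene, and mature small RNA and host precursor cannot be told apart in it.

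The first 25 bases of several host transcripts are shown because many snoRNA hosts start with a C followed by a run of pyrimidines, the terminal oligopyrimidine start that couples a transcript to growth control, and because the members are compared below by this feature. The bases come from the RefSeq promoter table (GRCh38.p14), 5′ to 3′ on the transcript strand. Capitals mark a leading C followed by an unbroken run of at least 4 more C or T. They are the hosts of members called against parental cells that have an entry, with those members in brackets. PHB2 has a second listed start, which lacks the run.
IPO7 (SNORA23; chr11:9384652-9384676, plus strand): CCTTTCgcgccggttgccgctgcgg
TAF1D (SNORA1; chr11:93741471-93741495, minus strand): CCTTTTCTTCCgcacggttggagga
RABGGTB (SNORD45C; chr1:75786256-75786280, plus strand): CCTTTCCCTgttagacatggtaagt
RPL27A (SNORA3; chr11:8682792-8682816, plus strand): CTTTTTCgtctgggctgccaacatg
PHB2 (SCARNA12; chr12:6970640-6970664, minus strand): CTTTCgccagccttacgggcccgaa
CEP295 (SCARNA9; chr11:93661682-93661706, plus strand): gcagaaacggctgctgggcagctga
CHD4 (SCARNA11; chr12:6606427-6606451, minus strand): tgactcgggccagtgtagaggtcct
KANSL2 (SNORA2A, SNORA2B; chr12:48682214-48682238, minus strand): actagagaagggcgagcggcgcggc
KHDC4 (SNORA42; chr1:155934389-155934413, minus strand): agtcggatagttggcgggtggttga
GAS5 (SNORD44, SNORD78, SNORD79; chr1:173869021-173869045, minus strand): agatgtgtttattttggagcctaca
SNHG1 (SNORD30; chr11:62855861-62855885, minus strand): ctcatttttctactgctcgtggtaa
HSPA8 (SNORD14E; chr11:123062112-123062136, minus strand): ctcattgaactcgcctgcagctctt

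Of 27 hosts, 21 had an entry in that table, and 12 of these (57.1%) had the start, against 5.14% of its 27305 genes (1404). A gene counts if any of its listed starts matches. A match is a description of these letters at the annotated start and not a measured start site. The search was chosen after the values had been seen.

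One parental array stood apart from the other 3. Parental array 4 lay outside the range of parental arrays 1 to 3 in 35 of the 44 small RNA genes (79.5%, 16 below and 19 above), against 72.3% of all genes. It differed by more than 0.5 log2 units from the mean of parental arrays 1 to 3 in 10 of 44 (22.7%), against 5.10% of all genes. Among the 377 genes with 1 row it did so in 17 that were lower and 32 that were higher. From an earlier look at all genes, parental array 4 was placed in 1 set with the lung arrays, and parental arrays 1 to 3 with the liver arrays. No measure of that grouping is given here, and the labels name no batch. Each comparison was therefore also fitted with this array set as a term. With it the liver change is set against parental arrays 1 to 3 alone and the lung change against parental array 4 alone, so a lung value with the term rests on a single parental array.

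Small RNA genes lay below the parental level in both kinds of derivative. In liver derivatives 39 of 44 had a negative mean difference, with a median of -0.17 log2 units beside 0.01 over all genes. In lung derivatives 36 of 44 were negative, with a median of -0.34 beside -0.0054 over all genes. By limma, with p-values adjusted over all 4727 genes and a gene called at an adjusted p under 0.05, 5 members fell in liver and 0 rose. In lung 20 fell and 1 rose. Over all genes 7.79% were called in liver (3.49% lower) and 30.1% in lung (17.2% lower, 12.8% higher), so the share of members called lower was 11.4% beside 3.49%, and 45.5% beside 17.2%. With the array set as a term, 7 members fell in liver, where 8.86% of all genes were called and 4.29% fell. In lung 3 then fell, where 5.73% of all genes were called and 2.67% fell. With every row tested on its own, 2 members were called in liver, 12 in lung and 4 between lung and liver, beside 2.2%, 13.1% and 12.6% of all rows. The median lung difference was -0.34 with the term as well.

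**Figure D1:**
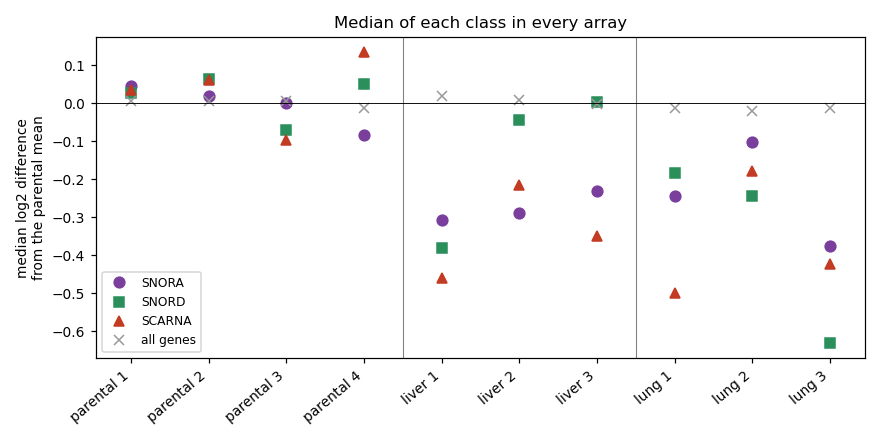
Median over the SNORA, SNORD and SCARNA genes of the log2 difference from the mean of the 4 parental arrays, 1 point per array, with all genes as crosses. Every lung median is below 0 and below every parental median of its class, while liver SNORD medians spread from -0.38 to 0.0029.

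Array by array, the class medians differed in evenness. For SNORA genes the median difference from the parental mean was -0.31, -0.29 and -0.23 in liver arrays 1 to 3 and -0.24, -0.10 and -0.38 in lung arrays 1 to 3. SCARNA medians were -0.46, -0.21 and -0.35 in liver and -0.50, -0.18 and -0.42 in lung. For SNORD genes the liver arrays spread from -0.38 in array 1 to -0.044 and 0.0029 in arrays 2 and 3, and the lung arrays lay at -0.18, -0.24 and -0.63. The SNORD median was thus set apart in 1 of 3 liver arrays and lowest in lung array 3. Over all genes the corresponding medians stayed between -0.021 and 0.020 on every array.

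Most genes read by 1 row, members or not, were not called. Of 335 such genes outside the set, 2 fell and 0 rose in liver (0.597% called), and 73 rose and 17 fell in lung (26.9% called), with a lung median of 0.20. Under the array set term 5 of them rose and 5 fell in lung, and the median was 0.10. With the members included, 1.59% of genes with 1 row were called in liver and 28.9% in lung. Among the 42 members with 1 row, 4 fell and 0 rose in liver, and 18 fell and 1 rose in lung. This comparison list was added after the values had been seen. Another list held 4 other short RNA genes, with symbols that start with RNU, RNY or RN7S. All 4 lay below the parental mean in liver, at -0.73 to -0.03 with a median of -0.46, and 0 were called by limma. In lung their median was 0.21, with 1 called rise. With the array set as a term their medians were -0.29 in liver and -0.02 in lung.

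**Figure D2:**
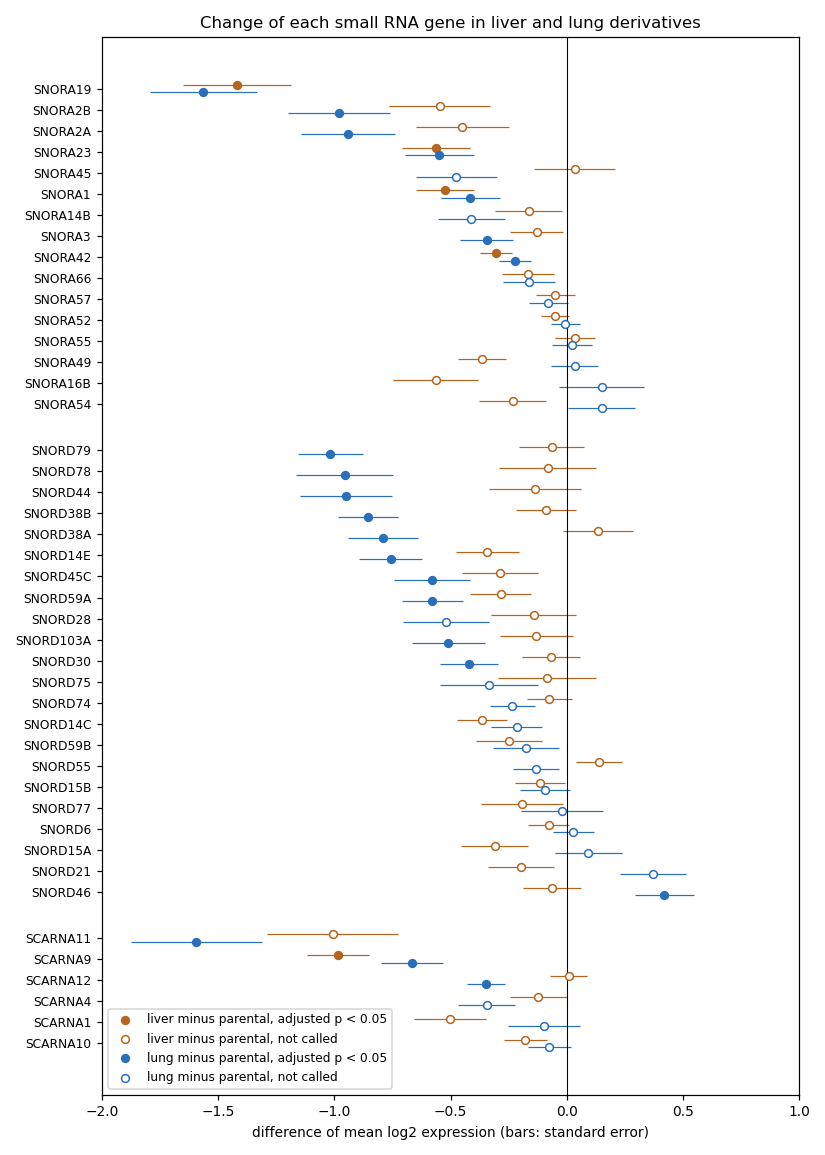
Log2 difference from the parental mean for each small RNA gene, liver and lung side by side, grouped by class; bars are the standard error of the limma fit and filled points are called at an adjusted p under 0.05. The filled liver points are 4 SNORA genes and 1 SCARNA gene, and SNORD46 is the 1 filled point above 0.

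In liver derivatives the falls were among H/ACA and Cajal body RNAs. Of 16 SNORA genes 4 fell, SNORA19, SNORA23, SNORA1 and SNORA42, with a class median of -0.27. Of 6 SCARNA genes 1 fell, SCARNA9, with a median of -0.34. Of 22 SNORD genes 0 were called by limma, 2 had an unadjusted p under 0.05, and the class median was -0.12. That median was -0.026 without liver array 1 and -0.20 without liver array 3. Whether the classes differ was not tested. Groups did not overlap in 10 members, all lower, where 9.16% of all genes lay lower and 11% higher without overlap.

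SNORA19, an H/ACA guide for ribosomal RNA inside the translation initiation factor gene EIF3A, had the largest fall of a member in liver. It lay at 7.81, 7.62, 7.73 and 6.65 log2 units in parental arrays 1 to 4, at 5.82, 6.14 and 6.14 in liver arrays and at 5.86, 6.01 and 5.81 in lung arrays. Every derivative array was below every parental array, and parental array 4 was about a log2 unit under the other 3. From 7.45 ± 0.54 (SD, n = 4) it fell by 1.42 to 6.03 ± 0.18 (n = 3) in liver (SE 0.23, adjusted p = 0.00237), which is 2.68-fold lower and the 11th largest fall of all genes. In lung it fell by 1.56 to 5.89 ± 0.11 (SE 0.23, adjusted p = 0.00119), 2.96-fold lower and the 4th largest fall. Both calls held in all 18 alternatives run, with adjusted p-values up to 0.0180 in liver and 0.0124 in lung. The dim-gene filter was not among these 18. It leaves out the 20% of genes with the lowest mean signal, and these include SNORA19 and SNORA1. The lung fall was 0.76 against parental array 4 alone. EIF3A itself differed by 0.01 in liver, which was not called, and by -0.20 in lung, which was called as a fall. Against parental array 4 alone the lung difference of EIF3A was -0.18.

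SCARNA9, a large composite RNA in an intron of the centrosome gene CEP295 that guides modification of a spliceosomal RNA, is the mean of 2 rows. It lay at 8.72, 8.50, 8.49 and 8.78 in parental, 7.29, 7.71 and 7.93 in liver and 7.94, 7.89 and 8.05 in lung arrays. No derivative array reached a parental one. It fell by 0.98 in liver (SE 0.13, adjusted p = 0.000702), 1.98-fold lower, and by 0.67 in lung (SE 0.13, adjusted p = 0.00540). These calls held in all 19 alternatives, with adjusted p-values up to 0.0128 and 0.0424.

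The 2 rows behind that mean did not move alike in lung. The brighter row read 9.91, 9.81, 9.77 and 9.46 in parental, 8.20, 8.77 and 8.99 in liver and 8.60, 8.21 and 8.53 in lung arrays. The dimmer row read 7.54, 7.20, 7.22 and 8.09 in parental, 6.38, 6.65 and 6.86 in liver and 7.27, 7.57 and 7.56 in lung arrays. Both rows were low in liver, while in lung the brighter row was low and the dimmer one overlapped the parental arrays. Parental array 4 was the highest parental array in the dimmer row and the lowest in the brighter one, which offset each other in the mean. Their log2 differences were -1.08 and -0.88 in liver and -1.29 and -0.04 in lung. The lung fall of SCARNA9 thus rests on 1 of its 2 rows, and CEP295 differed by -0.04 in liver and -0.14 in lung.

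SCARNA11 lies within CHD4, a chromatin remodeller gene. It read 9.39, 9.42, 9.46 and 8.10 in parental, 8.15, 8.01 and 8.10 in liver and 7.74, 7.52 and 7.23 in lung arrays. Parental arrays 1 to 3 were far above all derivative arrays, but parental array 4 lay among the liver arrays. The liver difference of -1.01 (SE 0.28) did not pass the test (adjusted p = 0.0547). Against parental arrays 1 to 3 alone it was -1.34 (adjusted p = 3.4e-05, range over the alternatives up to 0.175). In lung SCARNA11 fell by 1.59 (adjusted p = 0.00302), 3.02-fold lower and the 3rd largest fall of all genes. The lung difference was -0.60 against parental array 4 and was then not called (adjusted p = 0.0530, the highest of 19 alternatives). CHD4 differed by 0.08 in liver and -0.13 in lung.

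**Figure D3:**
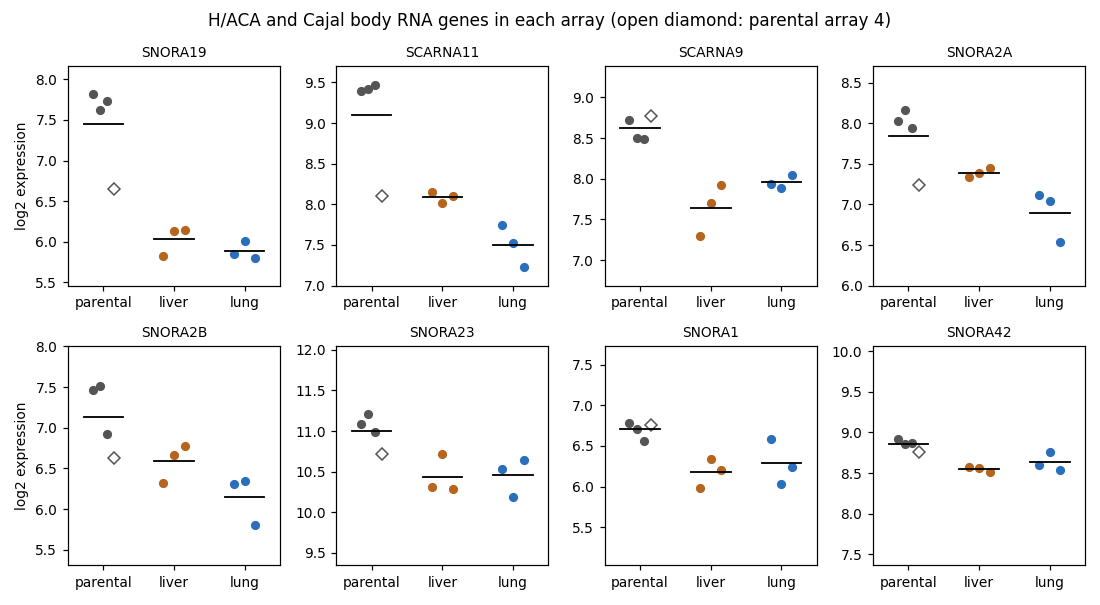
Log2 values per array of 8 small RNA genes that are low in the derivatives, with group means as lines and parental array 4 as an open diamond. For SNORA19 and SCARNA11 the diamond lies between the other parental arrays and the derivatives or among them, and for SCARNA9 it lies at the top of the parental arrays.

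The other falls in liver were smaller. SNORA23, a ribosomal RNA guide within the nuclear import receptor gene IPO7, read 11.09, 11.21, 10.99 and 10.72 in parental and 10.31, 10.72 and 10.29 in liver arrays. The highest liver array lay at the level of parental array 4. SNORA23 fell by 0.56 (SE 0.15, adjusted p = 0.0387, up to 0.174 over 19 alternatives). SNORA1, within the RNA polymerase I cofactor gene TAF1D, fell by 0.52 (SE 0.13, adjusted p = 0.0248, up to 0.131 over 18 alternatives), from 6.56 to 6.78 across parental arrays to 5.99 to 6.34 in liver. SNORA42, now named SNORA80E and studied elsewhere as a snoRNA raised in lung cancer, fell by 0.31 (SE 0.07, adjusted p = 0.0174, up to 0.0878 over 19 alternatives). Its parental arrays lay at 8.76 to 8.92 and its liver arrays at 8.51 to 8.57. These 3 also fell in lung, by 0.55, 0.41 and 0.22. Leaving out single arrays ended the liver call of SNORA23 in 6 of 10 cases, and those of SNORA1 and SNORA42 in 5 of 10 each.

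SNORA2A and SNORA2B are related copies in neighbouring introns of KANSL2, so their probes may share signal. SNORA2A read 8.03, 8.16, 7.93 and 7.24 in parental, 7.34, 7.39 and 7.45 in liver and 7.12, 7.05 and 6.53 in lung arrays. SNORA2B read 7.46, 7.52, 6.93 and 6.63 in parental, 6.32, 6.67 and 6.77 in liver and 6.31, 6.34 and 5.80 in lung arrays. Lung arrays were below all parental arrays for both, and liver arrays overlapped parental array 4. In lung they fell by 0.94 (adjusted p = 0.00740) and 0.98 (adjusted p = 0.00863). In liver the differences of -0.45 and -0.55 were not called, and against parental arrays 1 to 3 alone they were -0.65 and -0.72 and were called. In lung neither was called with the term, at -0.34 and -0.47. KANSL2 differed by 0.05 in liver, which was not called, and by -0.24 in lung, which was called as a fall. Against parental array 4 alone the lung difference of KANSL2 was -0.08.

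In lung derivatives all 3 classes held falls. SNORA genes fell in 7 of 16 (median -0.28), SNORD genes in 10 of 22 with 1 rise (median -0.38) and SCARNA genes in 3 of 6 (median -0.35). Groups did not overlap in 20 members that were lower, where 19.4% of all genes were lower and 12.8% higher without overlap. The 10 largest called falls were those of SCARNA11, SNORA19, SNORD79, SNORA2B, SNORD78, SNORD44, SNORA2A, SNORD38B, SNORD38A and SNORD14E. The other 10 called falls, given to complete the count, were SCARNA9, SCARNA12, SNORA1, SNORA3 (now SNORA3A), SNORA23, SNORA42, SNORD30, SNORD45C, SNORD59A and SNORD103A. With the array set as a term, 3 calls were left, SNORA19, SCARNA9 and SNORD79, and 42 of 44 members were below parental array 4. The class medians with the term were -0.24 for SNORA, -0.42 for SNORD and -0.44 for SCARNA genes.

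**Figure D4:**
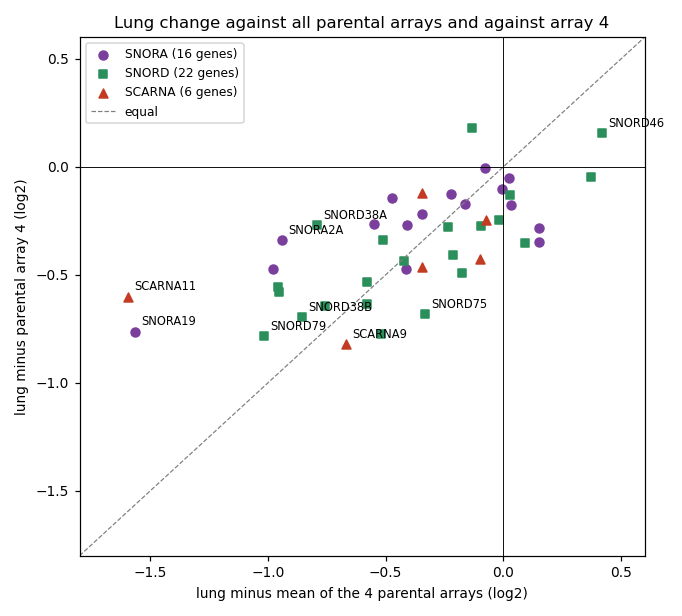
Each point is a small RNA gene; the horizontal axis is the log2 difference of the lung mean from the mean of all 4 parental arrays, the vertical axis the difference from parental array 4 alone. Nearly all points lie below 0 on the vertical axis (42 of 44), and SCARNA11 and SNORA19 have much smaller falls there than on the horizontal axis.

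Of the 10 box C/D falls in lung, 3 lay in introns of GAS5. GAS5, a non-coding growth-arrest transcript whose introns carry many C/D snoRNAs, holds 6 members. SNORD79 read 8.53, 8.33, 8.22 and 8.04 in parental, 7.87, 8.32 and 8.46 in liver and 7.32, 7.31 and 7.15 in lung arrays. Every lung array was below every parental and liver array. SNORD79 fell by 1.02 in lung (SE 0.14, adjusted p = 0.000780), 2.02-fold lower, a call that held in all 19 alternatives with an adjusted p up to 0.0497. SNORD78 read 9.67, 9.68, 9.60 and 9.12 in parental, 9.17, 9.49 and 9.65 in liver and 8.85, 8.83 and 8.02 in lung arrays, and fell by 0.96 (SE 0.21, adjusted p = 0.00827). SNORD44, long used as a reference small RNA in PCR of microRNAs, read 7.72, 7.61, 7.26 and 7.03 in parental, 6.98, 7.41 and 7.41 in liver and 6.54, 6.77 and 6.05 in lung arrays, and fell by 0.95 (adjusted p = 0.00642). Against parental array 4 alone the SNORD78 and SNORD44 differences were -0.56 and -0.58 and were not called. Members of the same transcript were uneven: the lung differences of SNORD75 (-0.33), SNORD74 (-0.23) and SNORD77 (-0.02) were not called. GAS5 itself has no row with a single symbol and is not analysed here.

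**Figure D5:**
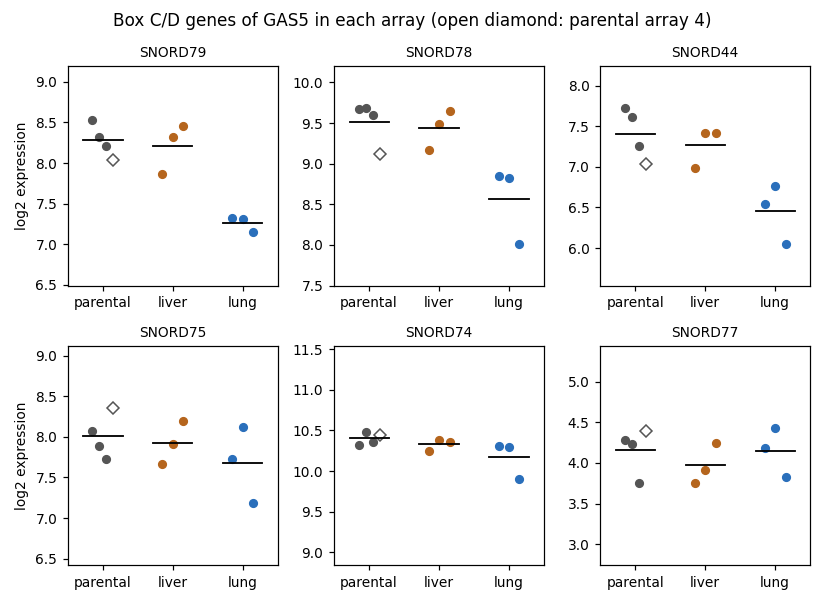
Log2 values per array of the 6 C/D snoRNAs in introns of GAS5, with group means as lines and parental array 4 as an open diamond. SNORD79, SNORD78 and SNORD44 are lowest in the lung arrays, and SNORD77 overlaps between all groups.

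Other C/D members moved in both directions in lung. SNORD38A read 9.07, 9.12, 9.11 and 8.40 in parental, 8.97, 9.07 and 9.13 in liver and 8.15, 8.15 and 8.09 in lung arrays. Its lung arrays were lowest, with parental array 4 nearer to them than to the other parental arrays. SNORD38A fell by 0.79 in lung (SE 0.15, adjusted p = 0.00433), and its copy SNORD38B, which can share probes with it, fell by 0.86 (adjusted p = 0.00125). Against parental array 4 alone these differences were -0.27 and -0.69. SNORD46 read 9.51, 9.68, 9.80 and 10.02 in parental, 9.64, 9.74 and 9.70 in liver and 10.43, 10.13 and 9.96 in lung arrays, with the lowest lung array under the highest parental one. It rose by 0.42 (SE 0.13, adjusted p = 0.0287), the 1 called rise among the 44 genes. Against parental array 4 alone the difference of SNORD46 was 0.16, and it was not called.

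Other called genes in lung included SNORD14E, a copy of the U14 family within the chaperone gene HSPA8. It fell by 0.76 (adjusted p = 0.00313) while HSPA8 differed by 0.02. SNORD14C, another copy in the same gene and the brightest SNORD member over all arrays, had the largest liver difference of its class at -0.37, which was not called (adjusted p = 0.0756). SCARNA12 read 10.37, 10.35, 10.34 and 10.05 in parental, 10.32, 10.29 and 10.24 in liver and 9.91, 9.99 and 9.89 in lung arrays, and fell by 0.35 in lung (adjusted p = 0.0105). The lung arrays lay below all others, and parental array 4 was closest to them, with a difference of -0.12 from it. SCARNA10, which guides modification of a spliceosomal RNA, differed by -0.18 in liver and -0.08 in lung, and SNORA55 by 0.04 and 0.02. SNORA54 had the most positive lung difference of its class at 0.15, beside -0.23 in liver. These differences from the parental mean were not called. Against parental array 4 alone the lung difference of SNORA54 was -0.28. The brightest SNORA member over all 10 arrays was SNORA57, with means of 10.87 in parental, 10.82 in liver and 10.79 in lung arrays. The dimmest member over all arrays was SNORD77, at 4.16 ± 0.28 (SD, n = 4) in parental arrays.

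The 19 rows that list several symbols gave a second set of small RNA signals that the member rule did not use. Fitted together with the members, 9 fell and 0 rose in lung, with a median of -0.37 and 17 below 0. In the fit without these rows 17.2% of all genes were called lower in lung. The rows were not fitted with the array set as a term, so the lung counts here lack that check. In liver 0 were called by limma, 3 had an unadjusted p under 0.05, and the median was -0.08. These rows can also read the host listed beside the small RNA. SNHG1, a non-coding snoRNA host, carried 8 of the small RNAs when these rows were included, and 4 of them fell in lung. The differences of the 8 ran from -0.93 to -0.29 in lung and from -0.15 to 0.04 in liver. With such rows the GAS5 cluster had 9 genes, of which 5 fell in lung. The largest lung differences among the 19, named after their values were seen, were SNORD45B at -0.99, SNORD25 at -0.93 and SNORA73A, a snoRNA that takes part in ribosomal RNA cleavage, at -0.88.

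Lung and liver derivatives were also set against each other, which repeats the same derivative arrays as the comparisons above. Of the 44 genes 10 were called (22.7%), 6 lower and 4 higher in lung, beside 19.9% of all genes, a share near the background. The lower ones were SNORD79 (-0.95, adjusted p = 0.00942), SNORD38A (-0.93), SNORD78 (-0.87), SNORD44 (-0.82), SNORD38B (-0.77) and SCARNA12 (-0.36). The higher ones were SNORA16B (0.71, adjusted p = 0.0302), SNORD21 (0.57), SNORD46 (0.48) and SNORA49 (0.40). SNORA16B read 6.11, 6.15, 5.75 and 6.67 in parental, 5.66, 5.44 and 5.73 in liver and 6.45, 6.47 and 6.04 in lung arrays, so lung arrays lay within the parental range and all liver arrays under it. By class, 5 SNORD genes were lower and 2 higher, 2 SNORA genes were higher and 0 lower, and 1 SCARNA gene was lower. With the array set as a term 0 members were called by limma (5 had an unadjusted p under 0.05), beside 0.0846% of all genes called and 0.0212% called lower. Leaving out liver array 2 also left 0 calls, and leaving out parental array 4 gave 16. The most positive SCARNA difference was that of SCARNA1 (0.40, adjusted p = 0.0989) and the most negative SNORA difference that of SNORA45, now SNORA3B (-0.51, adjusted p = 0.0735), neither called.

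Most members lay further below the parental level than their host genes did. For 30 members a host was measured, in 22 host genes, and these hosts had a median liver difference of -0.02 with 0 called by limma (2 had an unadjusted p under 0.05). The member lay below its host in 28 of 30 pairs. In lung 8 of 22 hosts fell (36.4%, beside 17.2% of all genes), while under the array set term 1 fell and 1 rose. The lung host median was -0.14 and the member lay below its host in 20 of 30 pairs. Across the 30 pairs, several of which share a host, Spearman's rho between the differences of member and host was 0.12 in liver and 0.07 in lung, given as a description. Member and host share arrays and, through unspliced RNA, possibly signal. Across the 44 members rho between the difference and the length of the small RNA was -0.33 in liver and 0.20 in lung, and with the mean signal 0.43 and -0.04.

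The members were also split by the start of their host transcript. The 15 members in hosts with an oligopyrimidine start had a median lung difference of -0.10 with 5 falls, and the 18 members in hosts without it had a median of -0.47 with 10 falls. Against parental array 4 alone these medians were -0.25 and -0.47. In liver the medians were -0.16 and -0.21 with 2 falls each. The 11 members whose 6 hosts have no entry had a lung median of -0.18 with 5 falls and 1 rise. Members of 1 host are not independent, and 6 members come from GAS5 alone, which by its annotated first base has no such start here. The split was not tested, since it was made with the values known.

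The protein genes of small RNA assembly and ribosome production were low in lung and not called in liver. Of 46 genes listed for this, 23 were measured: 4 of 22 for the small ribonucleoproteins, their assembly and the Cajal body, 3 of 4 for trimming of small RNA ends and 16 of 20 for pre-ribosome processing. The first group counts TAF1D, an RNA polymerase I cofactor gene rather than a particle protein. TAF1D also hosts SNORA1 and SNORD6, so its lung fall is counted among the hosts as well. In lung 16 of the 23 fell (69.6%, beside 17.2% of all genes) and 0 rose, with a median of -0.28. In liver 0 of 23 were called by limma and 2 had an unadjusted p under 0.05. ZNHIT6, an assembly factor of box C/D particles, fell by 0.62 (SE 0.12, adjusted p = 0.00433). NOLC1, the nucleolar and Cajal body phosphoprotein that binds both kinds of particle, fell by 0.48, TAF1D by 0.42 and UTP11, listed as UTP11L, a small subunit processome protein, by 0.50. EXOSC10, the nuclear exosome nuclease that trims snoRNA ends, fell by 0.31. UTP25, listed as C1orf107, fell by 0.34. With the array set as a term 0 of 23 were called in lung by limma (6 had an unadjusted p under 0.05), with a median of -0.15. Genes of ribosomal proteins, whose introns host many snoRNAs, were mostly not called: of 16 measured, 0 were called in liver, and in lung 1 rose and 1 fell, with a median of -0.04.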

How the data were processed

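The deposited values are log2 expression values of 10 arrays (2.55 to 13.99), which the authors made with RMA in oligo, per the submitters' processing notes (no version named). Summary level and array annotation build are not given in the sources used here. RMA puts arrays on 1 distribution, so a change in total RNA cannot be seen. The table has 65535 rows and may be incomplete: 54806 rows list 1 symbol (4727 genes), and 4674 of these genes lie on chromosomes 1, 10, 11 and 12. Against a RefSeq gene table (GRCh38.p14), 4703 symbols and all 44 members matched, 3 members under a new name.

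Rows of a gene were averaged. All 4727 genes were fitted with limma 3.58.1 (R 4.3.3), 1 coefficient per group over 10 arrays, no covariate, two-sided eBayes, Benjamini-Hochberg adjustment over all genes per comparison, called at an adjusted p under 0.05. The fit was tested on simulated data. The precision is limited by the number of arrays and, for dim genes, by signal over background. A host is the shortest measured gene whose interval holds the member. Strands could not be compared in the gene table, so the planned same-strand requirement was not applied, and hosts may be on the other strand.

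The members, lists and array set were chosen with earlier results of these data known. The text names called members (in lung, the 10 largest changes in each direction), the largest rise and fall of each class, the brightest and dimmest members, SNORA19, SCARNA9, SCARNA11, members sharing a host, their hosts and up to 6 called pathway genes per comparison. Alternatives were other row summaries, a dim-gene filter, renewed scaling, another moderation, the array set, the replicate number and leaving out arrays. The host of some members is not reported here.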

Additional observations from a re-analysis of the deposited data

Results flagged for a closer look

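In 5 of 31 named members the lowest of the 4 parental arrays stood far from the other 3 relative to the group's range, and each time it was parental array 4. SCARNA11 lay there at 8.10 log2 units, SCARNA12 at 10.05, SNORA19 at 6.65, SNORD38A at 8.40 and SNORD78 at 9.12. Chance alone flags about 1 in 20 such groups.

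The lung and liver differences from parental cells differed from each other, by the limma contrast of lung minus liver, in 10 members. That is 22.7% of the 44 genes, a share near the 19.9% of all genes called. The values were -0.95 for SNORD79, -0.93 for SNORD38A, -0.87 for SNORD78, -0.82 for SNORD44, -0.77 for SNORD38B, -0.36 for SCARNA12, 0.40 for SNORA49, 0.48 for SNORD46, 0.57 for SNORD21 and 0.71 for SNORA16B. With the array set as a term 0 of these were called.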

How the results depend on the processing

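In liver the 5 called members became 2 with the brightest row of each gene or with every row on its own, and 2 to 8 when 1 array was left out. In lung the 21 became 3 with the array set as a term, 12 with every row on its own, and 13 (without parental array 2) to 26 (without parental array 4) when 1 array was left out. Lung against liver, the 10 became 0 with the array set, 18 of 63 with rows of several symbols included, 4 with every row on its own, and 0 to 16 when 1 array was left out. With the replicate number as a block the counts were 7, 25 and 17. Same-numbered arrays had deviation correlations of -0.20 to 0.13, and the labels do not say whether they were handled together. The SNORA liver median was -0.17 without dim genes or with rows of several symbols. Without dim genes the SCARNA medians were -0.58 in liver and -0.51 in lung, and the SCARNA lung minus liver median was -0.21 with the brightest row. Leaving out 1 array gave medians from -0.32 to -0.18 for SNORA and from -0.51 to -0.18 for SNORD in lung, the highest without lung array 3. The SNORA lung minus liver median had no fixed sign, at -0.0042 as reported and 0.067 after renewed quantile normalization. The cause of these shifts was not tested. Over the 36 members that were called or named, no value called in either fit changed sign. Among their alternatives 1768 kept sign and side of the threshold, 51 gained and 138 lost the call with the same sign, and 68 changed sign with a call in neither fit.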
